A study of Mus musculus with 60 samples.

Results

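The collagen genes are the genes whose symbol in the 5 poly-A tables has the form Col, a number, the letter a and a second number, and 44 of the 55290 named features in each table met this rule. Collagens are proteins of 3 chains wound into a triple helix, and each chain has a gene of its own. Fibrillar collagens give tendon, skin and vessel walls their tensile strength, type IV collagens form the sheet of the basement membrane, type VI collagens form beaded filaments around cells, and FACIT collagens sit on the surface of fibrils. Fibroblasts, smooth muscle cells, endothelial cells and, in liver, stellate cells are known as sources of collagen, and an excess of it is the mark of fibrosis. By class, the 44 genes comprised 11 fibrillar chains, 6 type IV chains, 6 type VI chains, 9 FACIT chains, the 2 multiplexins Col15a1 and Col18a1, 3 short chain network formers, 4 transmembrane collagens and 3 others.

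Whole brain, heart, kidney, liver and spleen came from 3 Ftsj1-deficient (Ftsj1_DF) and 3 wildtype (WT) male mice, all aged 4 months, untreated and fed ad libitum. The product of Ftsj1, on the X chromosome, is a methyltransferase that acts on the anticodon loop of tRNAs. The allele, the strain background and the way in which the gene was inactivated were not given in the sources used here. The 6 mice came from 2 sets of brothers, of 2 and 4 mice, each set holds both genotypes, and the labels put every library in 1 batch. Of 60 libraries, the 30 poly-A ones are reported here, 6 for each organ, and for these the deposited tables hold the authors' result of comparing the genotypes but nothing for single mice. Every fold change below is therefore Ftsj1-deficient over WT, n = 3 mice against 3, with the authors' standard error (SE), and no spread of single mice can be shown. Ftsj1 itself had, from the authors' deposited table, log2 fold changes between -3.51 ± 0.15 (liver) and -2.70 ± 0.10 (brain). The sign of all fold changes was read from this gene.

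The depth of single libraries is unknown. The mean levels of a table, which are counts normalised by DESeq2 and averaged over 6 libraries, summed, in units of 1e6 normalised counts, to 338 for kidney, 240 for liver, 226 for brain, 141 for heart and 128 for spleen. Of 20 markers of organ identity, 19 had their highest level in the organ they mark, among them Snap25 in brain, Myh6 in heart, Umod in kidney, Alb in liver and Cd79a in spleen. The remaining marker, the B cell gene Ms4a1, was listed at 0 in all 5 organs. Of the collagen genes, Col10a1 was listed at 0 throughout, and the other 43 had a p in every organ. All 43 also had an adjusted p in brain, heart, kidney and spleen, against 38 in liver, where Col2a1, Col6a4, Col9a1, Col9a2 and Col26a1 had none.

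Collagen transcripts took the largest share of the heart and kidney tables and the smallest share of the brain table. Scaled to a table sum of 1e6 (CPM, here of mean normalised counts), the collagen genes together came to 2282 CPM in heart, 1721 in kidney, 1125 in spleen, 1005 in liver and 426 in brain. Because the tables were normalised separately, a level set across organs is a share of its own table. Levels between genes are given below in CPM per kb of coding sequence, taken from the longest coding sequence of the gene in the annotation GENCODE M21. On this scale 14 collagen genes had their highest level in heart, 13 in brain, 9 in spleen, 5 in kidney and 2 in liver.

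Each organ had its own leading chains. Type IV chains made up 60.9% of the collagen level per coding kb in kidney and 34.6% in heart, against 20.5% in spleen, 11.5% in brain and 6.13% in liver. In kidney the leading gene was Col4a4 at 82.2 CPM per coding kb, and Col4a3 stood at 30.4. Both encode chains of the mature glomerular basement membrane, and mutations in them cause Alport syndrome in humans. The kidney level of Col4a3 was 57.7 times that in the next organ, heart, and that of Col4a4 was 22.9 times. Col4a1 and Col4a2, the chains of nearly all basement membranes, led in heart at 86.0 and 77.5 CPM per coding kb and stood at 51.3 and 40.2 in kidney.

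In liver a single gene held most of the collagen level. Col18a1, which encodes a basement membrane collagen that carries endostatin at its end and is made by hepatocytes, stood at 133 CPM per coding kb, 68.0% of the collagen level of that organ. Its level in liver was 5.89 times that in kidney, the next organ. Exons of Col18a1 lie for 33.5% of their bases inside the bodies of other genes, mainly Slc19a1 on the opposite strand, and whether counting used the strand was not given in the sources used here. The fibrillar chains made up 13.4% of the liver level and were led by Col3a1 at 7.68 and Col5a3 at 7.38 CPM per coding kb.

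On the scale of coding length, brain was led by transmembrane collagens. This scale leaves out untranslated exon bases, and Col25a1 has 1998 coding bases against 12947 exon bases. Without scaling to length, fibrillar chains summed to 96.0 CPM in brain, transmembrane collagens to 83.1 and FACIT chains to 80.3. The transmembrane collagen gene Col25a1, whose protein is found in amyloid plaques and guides motor axons, stood at 32.0 CPM per coding kb and held 23.9% of the collagen level. This was 53.3 times its level in liver, the next organ. Next in brain came the transmembrane collagen Col23a1 at 9.61 and Col9a3, a chain of the FACIT collagen IX known from cartilage, at 9.23 CPM per coding kb. The main fibrillar chains were low in brain, with Col1a2 at 5.42, Col1a1 at 2.59 and Col3a1 at 1.28. Of these, Col3a1 was lowest in brain, while Col1a2 and Col1a1 were lower still in liver, at 2.77 and 1.34.

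Interstitial chains stood high in heart and spleen. Fibrillar chains made up 36.6% of the collagen level per coding kb in heart and 47.1% in spleen. Col3a1, the type III chain of compliant tissues, stood at 75.7 in heart and 33.5 in spleen, and Col1a2, a type I chain, stood at 42.6 and 44.9 CPM per coding kb. Col15a1, the multiplexin of muscle and vessel basement membranes, was highest in heart at 31.9. Spleen had the highest level of Col14a1, a FACIT chain that regulates fibril diameter, at 20.9 CPM per coding kb. The least abundant members in most organs were cartilage chains: Col2a1, the main fibrillar chain of cartilage, stood at 0.455 in brain and at 0.0610 or lower in every other organ.

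**Figure D1:**
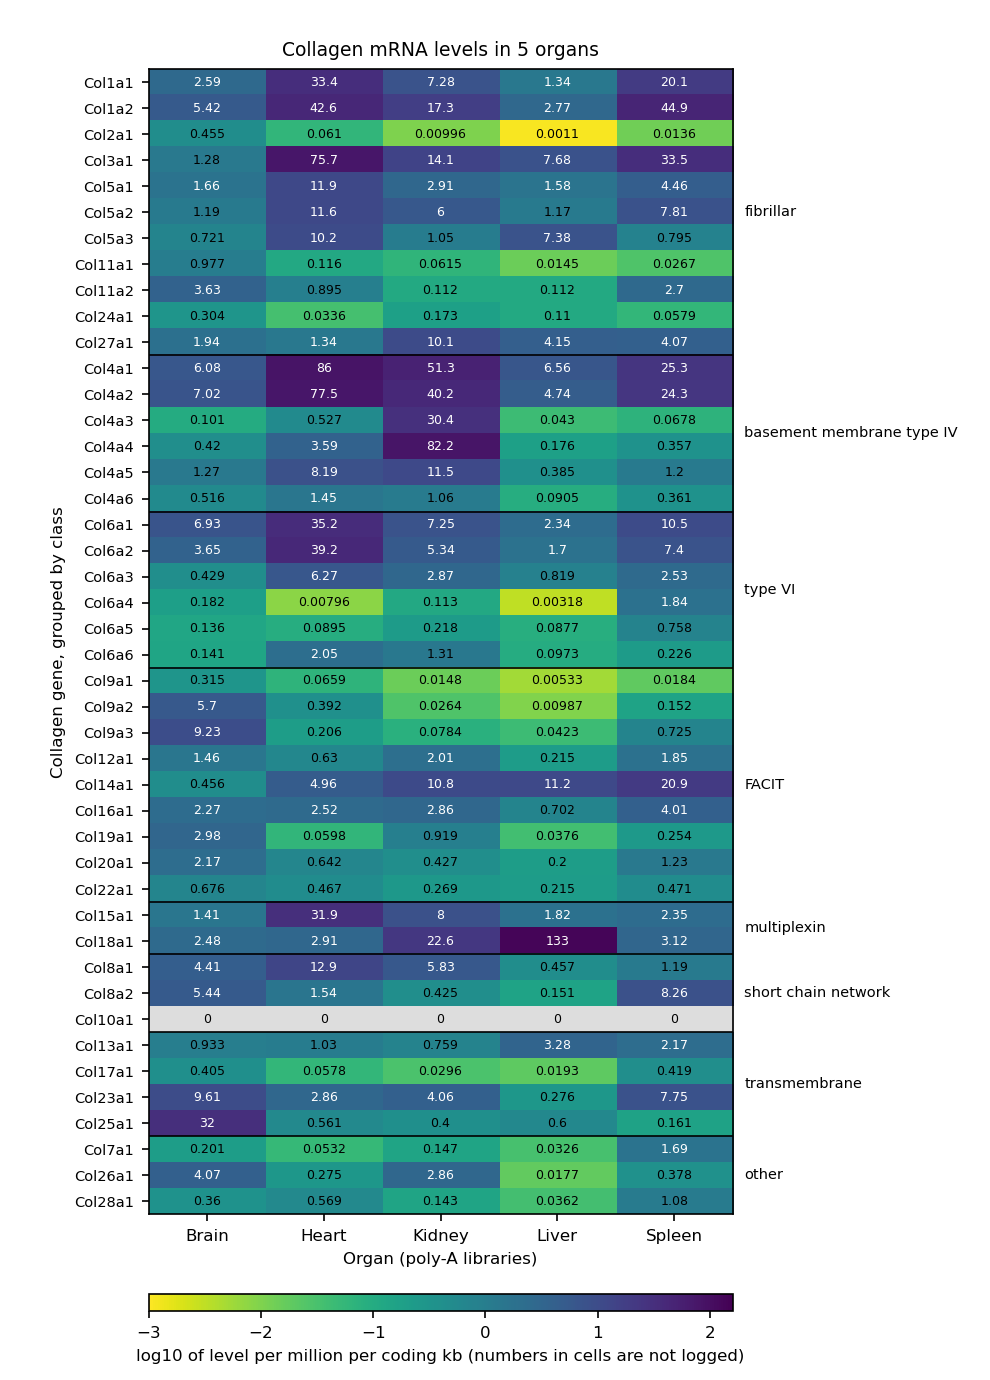
Level of the 44 collagen genes (rows, grouped by class) in the poly-A libraries of 5 organs (columns). Colour is the log10 and the number in a cell the plain value of the authors' mean level in CPM, scaled to the table's sum, per kb of coding sequence, averaged over 3 Ftsj1-deficient and 3 WT mice. Col4a3 and Col4a4 stand out in kidney (30.4 and 82.2), Col18a1 in liver (133) and Col25a1 in brain (32.0), while Col10a1 was listed at 0 everywhere.

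Few collagen genes differed between the genotypes, and all that did were lower in Ftsj1-deficient mice. A gene counts as risen or fallen here when the authors' DESeq2 adjusted p was under 0.05. In liver 3 of the 38 collagen genes with an adjusted p fell (7.89%), where 1.41% of the 18263 genes tested fell and 2.29% passed in either direction. In heart 1 of 43 fell (2.33%), where 0.331% of 21428 genes fell and 0.541% passed. In kidney 1 of 43 fell (2.33%), where 0.648% of 23313 genes fell and 0.987% passed. In brain and spleen none of 43 passed, where 0.0607% of 21406 and 0.0741% of 22947 genes did (0.0467% and 0.0261% by falling). No collagen gene rose in any of the 5 organs, where the share of all tested genes that rose was 0.887% (liver), 0.339% (kidney), 0.21% (heart), 0.0479% (spleen) and 0.014% (brain). At an unadjusted p under 0.05 there were 6 collagen genes in liver (15.8%, against 10.9% of all genes with an adjusted p), 4 in heart (9.3% against 8.36%), 3 in kidney (6.98% against 5.83%), 2 in brain (4.65% against 2.94%) and 2 in spleen (4.65% against 6.29%).

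The 3 genes that fell in liver belong to 3 classes. Col15a1 encodes the collagen XV chain of basement membranes, Col4a5 the type IV chain that joins the Col4a3 and Col4a4 chains in the glomerulus, and Col5a3 a minor chain of collagen V, which sets the diameter of type I fibrils. Their promoters are shown because these genes fell in the same organ, together with the promoter of Col4a6, the divergent neighbour of Col4a5, and that of Col6a5, which fell in heart. Each line gives the 250 bases before the annotated start, 5′ to 3′ on the strand of the gene, from RefSeq's annotation of GRCm38.p6. Capitals mark matches on either strand to the GC box GGGCGG or the CCAAT box CCAAT (the TATA box TATAAA, also searched, has no match in these 5 windows). The windows are chr4:47207762-47208011, plus strand for Col15a1; chrX:141475169-141475418, plus strand for Col4a5; chr9:20815068-20815317, minus strand for Col5a3; chrX:141474077-141474326, minus strand for Col4a6; and chr9:105960644-105960893, minus strand for Col6a5.
Col15a1: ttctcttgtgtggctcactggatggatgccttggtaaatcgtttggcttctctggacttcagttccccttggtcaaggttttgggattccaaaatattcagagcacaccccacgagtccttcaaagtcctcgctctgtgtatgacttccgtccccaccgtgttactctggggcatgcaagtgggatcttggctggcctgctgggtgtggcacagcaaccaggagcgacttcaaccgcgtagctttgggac
Col4a5: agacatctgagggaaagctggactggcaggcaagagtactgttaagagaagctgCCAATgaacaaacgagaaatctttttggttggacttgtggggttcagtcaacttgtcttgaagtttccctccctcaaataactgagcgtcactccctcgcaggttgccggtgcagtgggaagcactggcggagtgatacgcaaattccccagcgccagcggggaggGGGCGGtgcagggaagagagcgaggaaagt
Col5a3: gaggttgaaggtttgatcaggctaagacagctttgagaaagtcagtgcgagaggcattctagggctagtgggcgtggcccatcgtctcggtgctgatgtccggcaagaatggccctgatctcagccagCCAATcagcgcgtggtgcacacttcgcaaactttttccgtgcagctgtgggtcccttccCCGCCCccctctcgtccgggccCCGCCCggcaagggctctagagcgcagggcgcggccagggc
Col4a6: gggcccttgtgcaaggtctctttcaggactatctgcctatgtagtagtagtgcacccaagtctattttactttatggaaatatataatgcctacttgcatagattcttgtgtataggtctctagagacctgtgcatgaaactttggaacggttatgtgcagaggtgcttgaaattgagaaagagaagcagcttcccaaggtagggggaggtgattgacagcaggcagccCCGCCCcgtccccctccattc
Col6a5: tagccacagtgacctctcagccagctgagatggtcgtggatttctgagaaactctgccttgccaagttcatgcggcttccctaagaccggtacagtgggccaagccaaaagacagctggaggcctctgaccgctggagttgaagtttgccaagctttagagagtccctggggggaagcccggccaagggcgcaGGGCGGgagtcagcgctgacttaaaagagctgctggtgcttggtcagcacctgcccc
The Col15a1 window holds none of the 3 motifs, the Col5a3 window holds 2 GC boxes and 1 CCAAT box, the Col4a5 window 1 of each, and the Col4a6 and Col6a5 windows 1 GC box each. The table of promoters has entries for 35 of the 44 collagen genes, in 38 windows, and none for Col22a1. A GC box was found in 57.9% of these windows, against 32.7% of all 32851 promoter windows of the same length. CCAAT boxes were found in 34.2% of collagen windows against 33.8% of all, and TATA boxes in 13.2% against 12.4%. Collagen windows had a median GC content of 59.0%, against 52.4% over all windows, and the share of GC boxes was not adjusted for it.

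Col15a1 was reduced in liver to 62.9% of its WT level, with a log2 fold change of -0.67 ± 0.15 and a DESeq2 adjusted p of 0.00172 in the authors' deposited table. Its mean level there was 1787 normalised counts. In the other organs the authors' deposited table gives it -0.046 ± 0.12 in brain, -0.076 ± 0.24 in heart, -0.087 ± 0.10 in kidney and 0.18 ± 0.28 in spleen. None of these 4 values passed, although Col15a1 is more abundant in heart and kidney than in liver.

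Col4a5 stood at 69.0% of its WT level in liver, with a log2 fold change of -0.54 ± 0.15 and a DESeq2 adjusted p of 0.0238 in the authors' deposited table. The gene was low in liver, with a mean level of 467 normalised counts. In kidney, where Col4a5 is most abundant, the authors' deposited table gives a log2 fold change of 0.0090 ± 0.092, and the 95% interval runs from -0.17 to 0.19. Its values in brain (-0.096 ± 0.13), heart (-0.060 ± 0.16) and spleen (0.067 ± 0.41) in the authors' deposited table did not pass either. Col4a6, which starts 1343 bases away on the opposite strand of chromosome X, had a log2 fold change of -0.16 ± 0.26 in liver in the authors' deposited table and did not pass. The difference between these neighbours in liver, -0.38, was not tested.

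Col5a3 was the most abundant of the 3, with a mean level of 9228 normalised counts in liver, and stood at 69.8% of its WT level there. Its log2 fold change was -0.52 ± 0.15 and its DESeq2 adjusted p 0.0248 in the authors' deposited table. Brain (0.19 ± 0.17), heart (0.18 ± 0.22), kidney (-0.041 ± 0.14) and spleen (0.022 ± 0.26) had values on both sides of 0 in the authors' deposited table, and none passed. Its partner chains lay closer to 0: for Col5a1 and Col5a2 in liver the authors' deposited table gives 0.048 ± 0.14 and 0.099 ± 0.20.

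Below the threshold in liver came a transmembrane pair and a fibrillar chain. Col25a1 had a log2 fold change of -0.78 ± 0.24 and missed the threshold with a DESeq2 adjusted p of 0.0515 in the authors' deposited table. Col23a1 had -0.64 ± 0.28 (adjusted p = 0.293 in the authors' deposited table, by DESeq2). Col27a1, a fibrillar chain of cartilage and bone, had -0.60 ± 0.21 at a mean level of 5498 normalised counts (adjusted p = 0.11 in the authors' deposited table, by DESeq2). All 6 collagen genes with an unadjusted p under 0.05 in liver were below 0. The abundant Col18a1 had -0.21 ± 0.11 in the authors' deposited table, with a DESeq2 adjusted p of 0.485. The type I and III chains, which rise in liver fibrosis, were close to 0: Col1a1, Col1a2 and Col3a1 had values of -0.12 ± 0.15, -0.079 ± 0.14 and -0.078 ± 0.12 there, from the authors' deposited table.

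Cell type markers in liver moved in part beside these genes. Of the stellate cell markers described here, Reln had 0.024 ± 0.14, Lhx2 0.25 ± 0.16, Ngfr -0.13 ± 0.15 and Hand2 -0.48 ± 0.52 in the authors' deposited table, and Lrat was listed at 0. Of the markers tested in liver, none of 8 for fibroblasts, 11 for mural cells and 10 for endothelium passed, with list medians of 0.042, -0.042 and 0.19. The tendon gene Mkx and the lipid droplet gene Cidec fell by 1.30 ± 0.30 and 0.75 ± 0.17 on the log2 scale, from the authors' deposited table. Of 5 adipocyte markers tested in liver, 2 lay above 0 and only Cidec passed. Of 6 tendon and skeletal muscle markers, only 2 were tested in liver, both below 0, and only Mkx passed. Exocrine pancreas genes had high values with wide errors, Cela1 4.09 ± 1.64 and Pnlip 5.87 ± 2.98 in the authors' deposited table, with none of 4 tested passing and Cela2a listed at 0. The deposited means do not split by genotype, so a marker's summed level cannot be given per group, and the part of these markers in the collagen values was not tested. In whole organs, fewer cells of a type and less RNA per cell cannot be told apart.

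**Figure D2:**
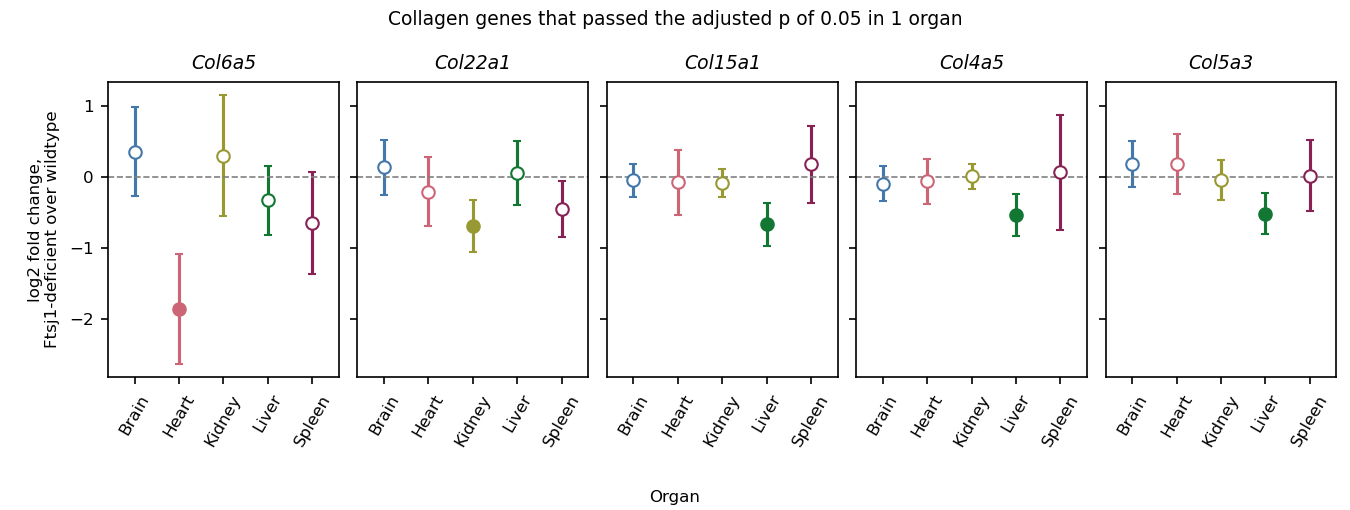
Log2 fold change (Ftsj1-deficient over WT, y axis) of the 5 collagen genes that passed the adjusted p of 0.05 in an organ, in each of 5 organs (x axis), from the authors' deposited table. Bars are 95% intervals, filled points passed and open points did not. Each gene passed in 1 organ, with the lowest value for Col6a5 in heart at -1.86.

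In heart the gene that fell was Col6a5, which encodes one of the long alternative chains of collagen VI that can take the place of the Col6a3 chain. It stood at 27.5% of its WT level, with a log2 fold change of -1.86 ± 0.40 and a DESeq2 adjusted p of 0.00267 in the authors' deposited table. Col6a5 was rare in heart, with a mean level of 100.06 normalised counts over 6 libraries, or 0.0895 CPM per coding kb. It ranked 36th of the 44 collagen genes in heart on that scale. The other type VI chains in heart were all below 0 and none passed: Col6a6 had -0.46 ± 0.20 in the authors' deposited table, and Col6a1, Col6a2, Col6a3 and Col6a4 lay between -0.10 and -0.057. Of the 4 collagen genes with an unadjusted p under 0.05 in heart, 3 were below 0 and 1 above. The latter was the fibrillar chain Col11a2, which had 0.44 ± 0.20 in the authors' deposited table and did not pass.

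Col6a5 was also the collagen gene whose fold change differed between organs. Its values elsewhere were 0.36 ± 0.32 in brain, 0.30 ± 0.44 in kidney, -0.33 ± 0.25 in liver and -0.65 ± 0.37 in spleen in the authors' deposited table. Cochran's Q over the 5 organs, which asks whether fold changes differ by more than their standard errors, was 22.5 for Col6a5, which by the chi-square distribution with 4 degrees of freedom gives an adjusted p of 0.0271 over 28568 genes. It was the 1 collagen gene of 43 that passed, where 0.763% of all genes did. At an unadjusted p under 0.05, 6 of 43 collagen genes (14.0%) differed between organs against 6.2% of all genes, namely Col6a5, Col15a1, Col5a3, Col25a1, Col22a1 and Col4a5. Of these Col15a1 had an adjusted p of 0.33 by Cochran's Q, and the others had higher ones. The same 6 mice gave all organs, and Q treats the organs as independent. Without brain the adjusted p of Col6a5 was 0.129, and without heart it was 1, so the call rests on those organs.

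Markers of tissue that can stay on a dissected heart differed in part. Of 6 adipocyte markers tested in heart, the hormone gene Lep fell with a log2 fold change of -4.92 ± 0.85 (DESeq2 adjusted p = 2.27e-05 in the authors' deposited table). Adipoq, Cidec and Plin1 had values of -2.11 ± 1.01, -1.98 ± 0.98 and -1.89 ± 1.04 in the authors' deposited table and did not pass, while Fabp4 and Lpl were above 0. All 6 mesothelial markers were below 0, with a median of -0.54 and none passing, and their summed level was 70.5 CPM. Of 6 markers of lung epithelium, 5 had no p and Ager did not pass. None of 9 fibroblast markers passed, and their median was -0.083. The part of these tissues in the value of Col6a5 was not tested.

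Kidney had 1 collagen gene that fell and 1 that came close to rising. Col22a1, a FACIT chain of junctions between tissues such as the muscle-tendon junction, stood at 62.0% of its WT level. Its log2 fold change was -0.69 ± 0.19 and its DESeq2 adjusted p 0.0258 in the authors' deposited table, and its mean level was 440.2 normalised counts. In spleen it had -0.45 ± 0.20 in the authors' deposited table, with an unadjusted p of 0.023 in the Wald test across all genes by DESeq2, and did not pass after adjustment. In brain (0.14 ± 0.20), heart (-0.21 ± 0.25) and liver (0.058 ± 0.23) its values in the authors' deposited table lay within 1 standard error of 0.

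Col8a1, a chain of the network collagen of vessel walls and of corneal and glomerular cells, had a log2 fold change of 0.44 ± 0.14 in kidney and did not pass (DESeq2 adjusted p = 0.0906 in the authors' deposited table). Its partner Col8a2 had 0.076 ± 0.22 there in the authors' deposited table. Col19a1, a FACIT chain, had -0.60 ± 0.19 and did not pass (DESeq2 adjusted p = 0.15 in the authors' deposited table). The abundant type IV chains of kidney did not pass and were measured closely: Col4a4 had 0.096 ± 0.10 and Col4a3 0.21 ± 0.13 in the authors' deposited table. The 7 podocyte markers, genes of the cells that make these chains, were all above 0 in kidney with a median of 0.10, and none passed. The choroid plexus markers Ttr and Clic6, both also expressed outside that tissue, fell in kidney by 1.14 ± 0.12 and 1.16 ± 0.28 on the log2 scale, from the authors' deposited table. Their part in the value of Col22a1 was not tested.

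Brain and spleen had no collagen gene that passed. In brain the smallest p belonged to Col6a2, with a log2 fold change of -0.25 ± 0.10, and to Col4a6, with -0.47 ± 0.21 in the authors' deposited table (DESeq2 adjusted p of 1 after rounding for both). In spleen Col22a1 and Col28a1 had the smallest p, and Col28a1, a collagen of peripheral nerve, had -0.32 ± 0.16 in the authors' deposited table. Markers of tissues rich in collagen that lie against the brain did not pass there: none of 6 for meninges, with a median of -0.0039, and none of 6 for cartilage and bone, with a median of -0.17. Their part in the collagen values of brain was not tested.

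Medians over the collagen genes lay near 0 in all organs. The median log2 fold change was 0.037 in kidney (all genes tested 0.0046), 0.022 in spleen (0.014), -0.022 in brain (0.0022), -0.036 in liver (0.0056) and -0.083 in heart (-0.0052). Above 0 lay 25 of the 43 collagen genes tested in kidney, 22 of 43 in spleen, 18 of 43 in brain, 15 of 43 in heart and 17 of 38 in liver. The data bound the change closely in some organs only. The 95% interval lay within 0.5 log2 units of 0 on both sides for 27 collagen genes in kidney, 25 in brain and 16 in liver, but for 6 in heart and 5 in spleen.

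**Figure D3:**
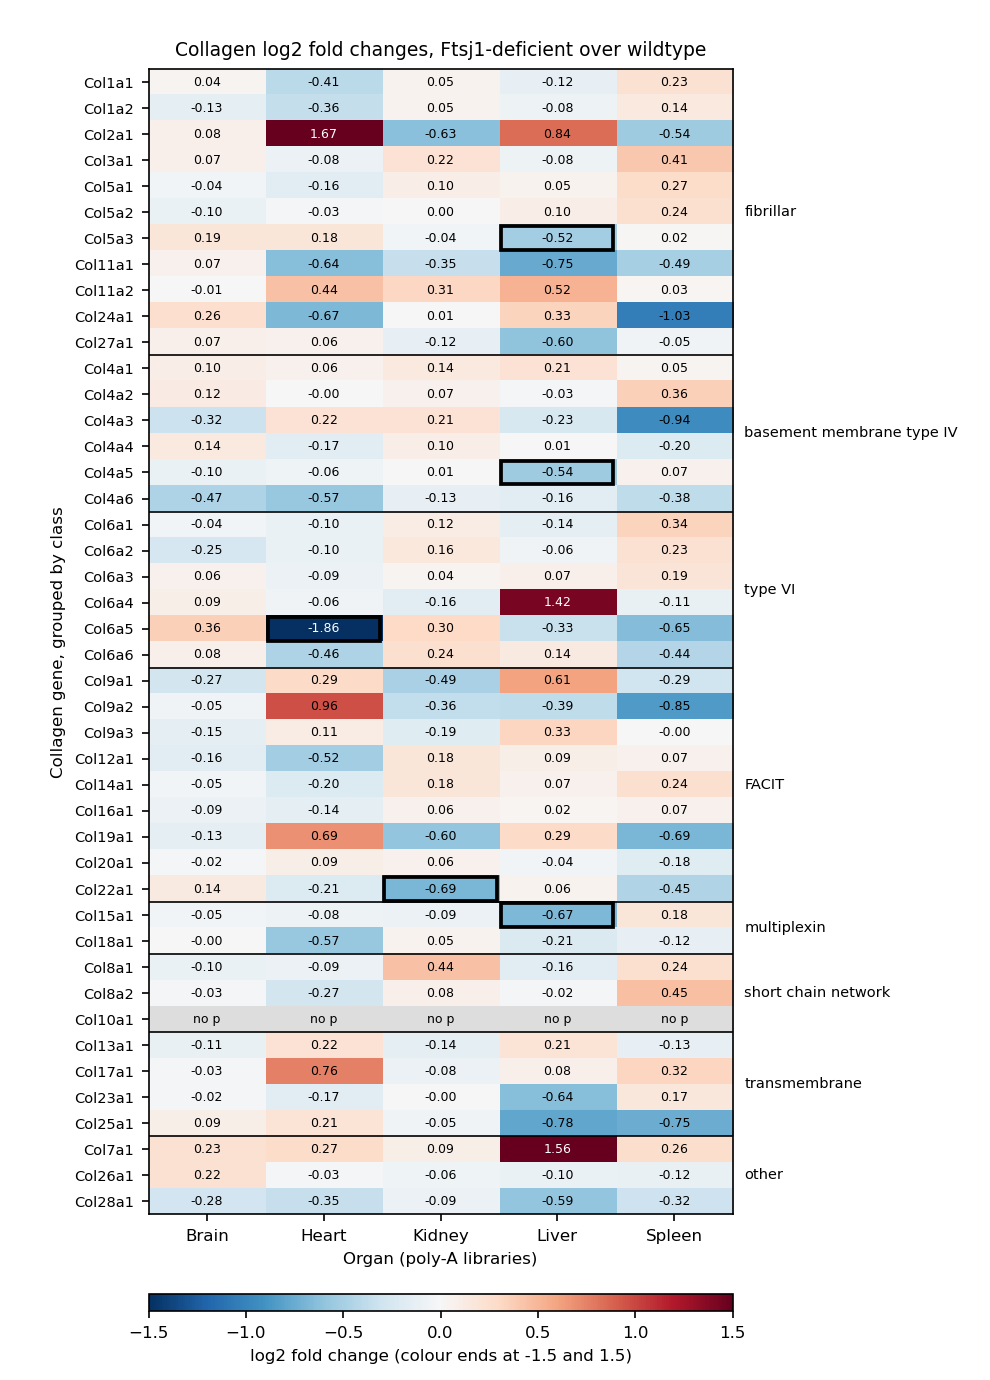
Log2 fold change (Ftsj1-deficient over WT) of the collagen genes (rows, grouped by class) in 5 organs (columns), from the authors' deposited table. Black frames mark the 5 values that passed the adjusted p of 0.05, all of them below 0, and Col10a1 had no p. Some of the strongest colours, such as Col2a1 in heart at 1.67 and Col7a1 in liver at 1.56, are rare transcripts that did not pass.

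The 12 chains of types I, III, V and VI, which include the main chains of the interstitial matrix, lay on both sides of 0 in every organ. In heart 11 of 12 were below 0, where Col5a3 had 0.18 in the authors' deposited table and the called Col6a5 was lowest. The type I chain Col1a1 had -0.41 and its partner Col1a2 -0.36 there in the authors' deposited table. In kidney 10 of 12 were above 0, with Col5a3 at -0.041 and Col6a4 at -0.16 in the authors' deposited table. Col5a2 in kidney stood at 0.0027 and moved below 0 when fold changes were taken relative to the median of all genes. In spleen 9 of 12 were above 0, up to 0.41 for Col3a1, while Col6a4, Col6a5 and Col6a6 had -0.11, -0.65 and -0.44 in the authors' deposited table. In brain 7 and in liver 5 of the 12 were above 0. Of these values, the falls of Col6a5 in heart and Col5a3 in liver passed. Chains of 1 sample share its cells and its library, so they are no replicates of each other.

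Most markers of mural cells, endothelium and fibroblasts were above 0 in spleen. Of 11 mural cell markers tested there, 7 were above 0 with a median of 0.39, and 4 had an unadjusted p under 0.05. Of 10 endothelial markers 9 were above 0 with a median of 0.25, and 3 had such a p. Of 9 fibroblast markers 6 were above 0 with a median of 0.20, and 2 had such a p. Over all genes tested in spleen 52.2% lay above 0 and 6.29% had such a p. Endothelial markers lay mostly above 0 in the other organs too, 8 of 10 in brain and kidney and 9 of 10 in heart and liver. Of all genes tested, 50.8% lay above 0 in brain, 51.3% in kidney, 49.2% in heart and 51.2% in liver. In heart, where 11 of the 12 chains were below 0, 4 of 11 mural cell and 2 of 9 fibroblast markers were above 0. None of these markers passed after adjustment, and their part in the collagen values was not tested.

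**Figure D4:**
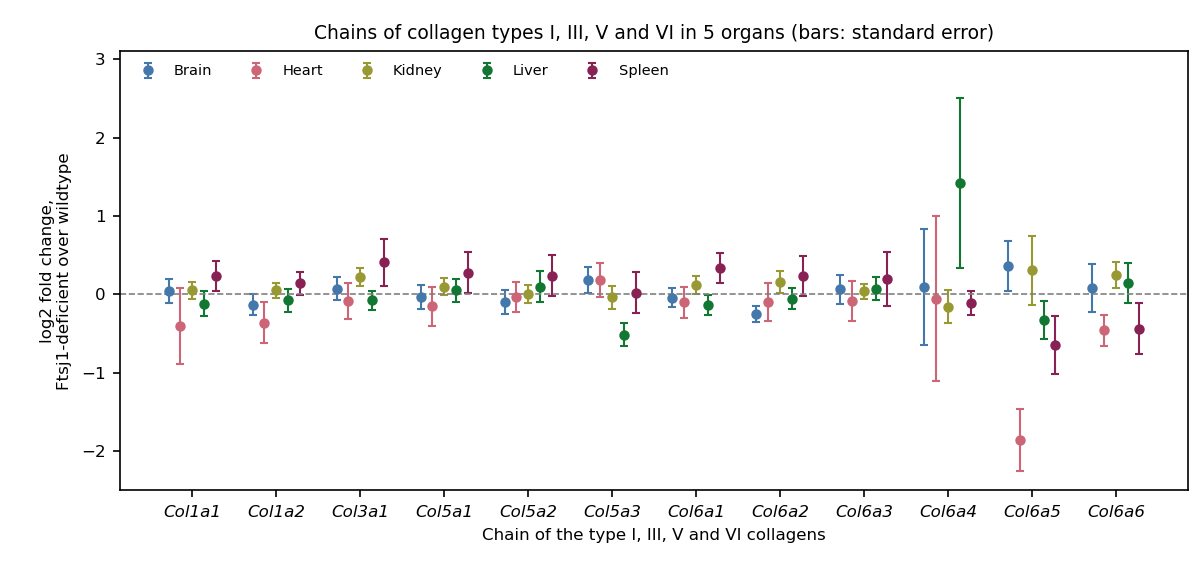
Log2 fold change (Ftsj1-deficient over WT, y axis) of the 12 chains of types I, III, V and VI (x axis) in 5 organs (colours), from the authors' deposited table. Bars are 1 standard error. In heart 11 of 12 points lie below 0, with Col6a5 at -1.86, and in kidney 10 and in spleen 9 of 12 lie above it, Col5a2 in kidney only by 0.0027.

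Partner chains of 1 trimer were set side by side, and their differences were not tested. Col1a1 and Col1a2, which form collagen I at 2 chains to 1, had 0.049 ± 0.10 and 0.049 ± 0.095 in kidney and -0.41 ± 0.49 and -0.36 ± 0.26 in heart in the authors' deposited table. Col4a1 and Col4a2, whose starts lie 21 bases apart on chromosome 8, had 0.14 ± 0.10 and 0.070 ± 0.095 in kidney in the authors' deposited table. They lay further apart in liver, at 0.21 ± 0.13 and -0.028 ± 0.14, and in spleen, at 0.047 ± 0.44 and 0.36 ± 0.33 in the authors' deposited table. Col6a1 and Col6a2, partners in collagen VI, had -0.044 ± 0.12 and -0.25 ± 0.10 in brain in the authors' deposited table. For Col4a5 and Col4a6 the values in heart were -0.060 ± 0.16 and -0.57 ± 0.25 in the authors' deposited table. Col4a6 was below 0 in all 5 organs, from -0.57 in heart to -0.13 in kidney, and so was Col28a1. Col4a1 and Col7a1, the anchoring fibril collagen of skin, were above 0 in all 5 organs. None of these 4 genes passed in any organ. They were found by sign among the 43 collagen genes with a p in every organ, and the share among all genes was not determined.

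Collagen fold changes had wider errors in heart and spleen than those of other genes at the same level. For each gene whose mean level reached 100, the standard error was divided by the median over the 200 genes nearest in level. This ratio was over 1.5, a bound set after the values were seen, for 12 of 33 collagen genes in heart (36.4%) and 12 of 35 in spleen (34.3%). Over all genes of that level the shares were 7.12% in heart and 14.1% in spleen. In brain 5 of 43 collagen genes exceeded it (11.6% against 5.62% of all), in kidney 1 of 38 (2.63% against 3.88%) and in liver 0 of 30 (against 5.06%).

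The widest errors belonged to a few genes. In brain the network chains Col8a2 and Col8a1 had standard errors of 0.55 and 0.52 in the authors' deposited table, 4.71 and 4.39 times those of genes of like level. Both encode collagen VIII. Col18a1 and Col1a1 in heart had standard errors of 0.61 and 0.49 in the authors' deposited table, 3.85 and 3.3 times their neighbours. The 95% interval of Col1a1 in heart ran from -1.36 to 0.55. Neither a fall within this range nor a moderate rise of this main fibrillar chain was therefore excluded there. Which mice carry this spread was not analysed here, since no value per mouse was at hand.

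**Figure D5:**
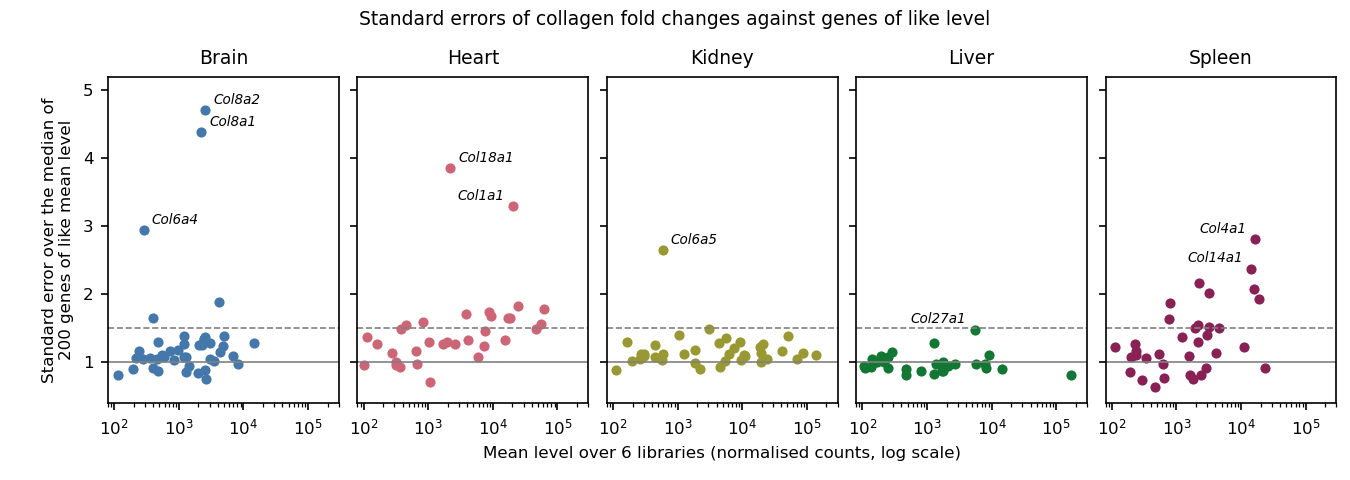
Standard error of the log2 fold change of collagen genes whose mean level reached 100, divided by the median of the 200 genes of nearest level (y axis), against mean level in normalised counts (x axis, log scale), for 5 organs. The solid line is a ratio of 1 and the dashed line 1.5. In heart and spleen 12 genes each lie above the dashed line, in liver none.

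Of the genes that make, modify, anchor, break down or induce collagen, 1 passed, a member of the list of TGF-beta and matrix induction. These were 110 genes in 7 lists, of which 100 were tested in brain and liver and 104 in heart, kidney and spleen, and in all 5 organs together a single value passed. Ccn2, a matricellular protein gene induced by TGF-beta and mechanical load, fell in kidney with a log2 fold change of -0.44 ± 0.10 (DESeq2 adjusted p = 0.00272 in the authors' deposited table). This 1 gene is 0.962% of the list in kidney, against 0.987% of all genes there. None passed in brain, heart, liver or spleen. At an unadjusted p under 0.05 there were 14 in spleen (13.5%, against 6.29% of all genes), 7 in brain (7.0% against 2.94%), 8 in liver (8.0% against 10.9%), 6 in kidney (5.77% against 5.83%) and 4 in heart (3.85% against 8.36%). The prolyl and lysyl hydroxylases, chaperones and glycosyltransferases that fold collagen had 0 of 21 passing in brain, heart, kidney and spleen and 0 of 20 in liver. Their median was 0.24 in spleen, with 18 of 21 above 0, and between -0.029 and 0.026 elsewhere.

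Genes for processing and crosslinking, such as the procollagen proteinase Bmp1 and the lysyl oxidase Lox, had 13 of 14 values below 0 in heart and 12 of 14 above 0 in spleen. Their medians were -0.21 in heart and 0.26 in spleen, and none passed. Fibril partners such as the proteoglycan Dcn and the elastic fibre genes Fbn1 and Eln had 17 of 19 below 0 in heart, with a median of -0.22, and 13 of 19 above 0 in spleen, with a median of 0.17. Over all genes tested 49.2% lay above 0 in heart and 52.2% in spleen. Basement membrane partners had medians of -0.12 in heart and 0.042 in liver, and receptors such as the integrins and Ddr2 had 0.17 in liver and 0.18 in spleen. Degradation genes such as Mmp2 and Mmp14 had a median of 0.28 in spleen with 10 of 11 above 0. No member of these lists passed in heart or spleen. The list of TGF-beta and matrix induction, which holds Ccn2, had 3 of 15 genes above 0 in heart, 3 of 15 in kidney and 8 of 15 in spleen. These partners were measured in the same libraries as the collagen chains.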

How the data were processed

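Poly-A RNA of 5 organs from 3 Ftsj1-deficient and 3 WT mice was sequenced. The submitters' processing notes name featureCounts, Subread 2.0.3, DESeq2 and build GRCm39; the aligner, annotation and strand setting were not given in the sources used here. Per the file headers, each deposited table of an organ gives the mean of normalised counts over its libraries, a signal that holds no value per library, with the log2 fold change and its standard error on the log2 scale. The deposited tables also hold the Wald statistic, a score equal to the log2 fold change over its standard error to within 1e-06 in every gene, and the authors' p-value with its Benjamini-Hochberg adjusted value. The deposited mean levels came from 6 libraries, whose single depths are unknown, so no interval from counts and no spread between mice can be given.

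The sign of the fold changes was read from Ftsj1. A gene was counted when the authors' adjusted p was under 0.05. Levels were scaled to the table's sum and to coding length in GENCODE M21, an annotation of GRCm38 used for lengths and gene overlaps. Promoters were read from RefSeq, GRCm38.p6. Cochran's Q was computed with SciPy 1.17.1 for genes with values in 5 organs, adjusted by Benjamini-Hochberg over all of them, and was tested on simulated data. Python 3.11.15, pandas 2.3.3, NumPy 2.4.6 and matplotlib 3.10.9 were used. The row without a gene name, at most 0.000198% of a table, was left out. Tables of other RNA classes hold no collagen gene and were not used here.

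The text names collagen genes that passed and a choice of those with a small p or a high level in an organ. It also names partner chains, and members of pathway or marker lists that passed. The result of 1 marker gene is not reported here. The members and lists were chosen with earlier results of these data known. Brothers in 2 sets gave both genotypes, and the p-values measure the spread between these mice. Alternatives were other thresholds, filters, families of tests and scalings, and leaving out an organ from Q.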

Additional observations from a re-analysis of the deposited data

Results flagged for a closer look

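Col6a5 was singled out because its fold changes differed between organs when that difference itself was tested, with an adjusted p of 0.0271 by Cochran's Q over 5 organs. The log2 fold change of Col6a5 was -1.86 ± 0.40 in heart in the authors' deposited table, -0.65 ± 0.37 in spleen, -0.33 ± 0.25 in liver, 0.30 ± 0.44 in kidney and 0.36 ± 0.32 in brain. The adjusted p was 0.129 without brain and 1.00 without heart, so the difference between organs rests on these organs.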

How the results depend on the processing

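Most alternatives changed thresholds, filters and families of tests, which leave a fold change as it is, and the scaling moved all genes of an organ alike, so they do not test directions. Without independent filtering, and with genes of a mean level of 10 or more, the counts of collagen genes stayed at 1 in heart, 1 in kidney and 3 in liver. At an adjusted p under 0.01, 0 collagen genes were left in kidney and 1 in liver (Col15a1). The same counts, 0 and 1, came from adjusting over the 5 organs together, where Col22a1 had an adjusted p of 0.0572, Col4a5 of 0.0910 and Col5a3 of 0.0946. At an adjusted p under 0.10, liver had 4 collagen genes, with Col25a1 added, kidney had 2 (Col8a1 and Col22a1), and the pathway genes came to 1 in heart (Fkbp10), 2 in kidney (Lama1 and Ccn2) and 2 in liver (Colgalt2 and Lair1). At an unadjusted p under 0.05 6 collagen genes were counted in liver, 4 in heart, 3 in kidney and 2 each in brain and spleen. With a mean level of 100 or more, Col25a1 passed in liver with an adjusted p of 0.0450. The number of collagen genes that differed between organs was 0 without brain and 0 without heart, where the adjusted p of Col6a5 was 0.129 and 1.00, and 1 without each of the other organs. Taking fold changes relative to the median of all genes, -0.0019 in heart to 0.019 in spleen, moved Col5a2 in kidney to the other side of 0; no value of this gene passed. Why calls changed was not tested beyond the number of genes adjusted over.

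No paired analysis was possible because the tables hold no values per library. For the same reason leaving out single mice, a block for brothers, and edgeR with TMM scaling were not run, and single libraries could not be compared for depth, outliers or duplicates. With 3 mice against 3, low genes such as Col6a5 in heart and genes with wide errors in heart and spleen are measured least closely.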

Other observations

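Col10a1, the network collagen of growth plate cartilage, was listed at 0 in all 5 organs, and its exons lie wholly inside the body of Nt5dc1 on the opposite strand. Of 1378 protein-coding genes whose exon bases all lie inside another gene, 1088 (79.0%) were listed at 0 in all 5 organs. Of 13575 with no exon base inside another gene, 394 (2.90%) were. Between these, the share was 0.0783% of 5107 genes with under 50% of their exon bases inside and 6.98% of 1131 genes with more. Collagen pathway genes listed at 0 throughout were Timp1, Timp3 and Timp4, which inhibit matrix metalloproteinases, the proteoglycan genes Ogn and Aspn, and Mmp19. For these 6 no fold change can be given, and why they were listed at 0 was not tested. Of the collagen genes, 5 had 10% or more of their exon bases inside another gene, namely Col10a1, Col4a3, Col18a1 (33.5%), Col4a1 (23.7%) and Col4a2 (16.6%), and none of these passed in any organ.

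Among the marker genes, Reln, on the list of stellate cell markers, fell in heart with a log2 fold change of -0.56 ± 0.15 in the authors' deposited table. Ryr2, the calcium release channel gene used as a heart identity marker, fell in kidney by 0.82 ± 0.14 on the log2 scale, from the authors' deposited table.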
